A study of Mus musculus with 20 samples.

Results

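Stefins and skin cystatins are inhibitors of cysteine proteases, and 8 of their genes were followed here across abdominal skin of 20 mice: the stefin A type genes Csta3, Stfa1, Stfa2, Stfa2l1 and Stfa3, the stefin B gene Cstb, the cystatin M/E gene Cst6 and the cystatin C gene Cst3. They were chosen by name from 22180 genes that could be tested, with earlier results of these data known. Counts over the 8 genes are thus descriptions. Each gene was read by a probe set that the array platform ties to that symbol alone, and by the brightest such probe set where there were several, which concerned Cst3 only (8 genes, 9 probe sets). All 8 were measured, and no filter on low values was applied.

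Cystatins sit as a wedge in the active site of papain-like proteases, among them cathepsins B, H, L and S, and block them reversibly. Stefins are the small members without a signal peptide, which act inside the cell. Stefin B is made in most cells, whereas stefin A is found in squamous epithelia, where it is built into the cornified envelope, and in some leukocytes, and in the mouse it is encoded by a cluster of near copies. Cystatin M/E and cystatin C are secreted. Cystatin M/E restrains legumain and cathepsin L in the upper epidermis, and mice without it have a defect of cornification, while cystatin C is made in most tissues.

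The groups were mice with both Zfp36 alleles floxed (zfp36 fl/fl), called control below, and mice with the same alleles and a Cre transgene under the keratin 14 promoter (zfp36 fl/fl K14 cre), called knockout. K14 is active in basal keratinocytes and their descendants, so that other skin cells keep Zfp36, which encodes the mRNA decay factor tristetraprolin. Per the series design the controls were littermates. Each genotype was either mock-treated or given topical imiquimod, a Toll-like receptor 7 agonist that causes a psoriasis-like inflammation, on 5 consecutive days, and skin was taken 4 hours after the last dose. There were 5 animals and 5 arrays in each of the 4 groups, and neither the strain nor the age of the mice is given in the sources used here. Zfp36 itself lay between 7.22 and 7.74 in mock-treated and 7.68 and 8.40 in imiquimod-treated controls, and between 3.47 and 7.12 and between 5.47 and 7.41 in the respective knockouts, so that each knockout array was below each control array of its treatment. In limma over all genes Zfp36 did not pass, at -2.03 in mock-treated skin (adjusted p = 0.999) and -1.60 in imiquimod-treated skin (0.221).

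The promoters of the 5 stefin A type genes are shown first, since all 5 rose with imiquimod in control mice and are alike in sequence. Each line gives the 200 bases before the RefSeq start of the gene (assembly GRCm38.p6), 5′ to 3′ on the gene's strand, in their order on chromosome 16. The capitals mark ACTCAGCATTTCC and ACCTTTAAAACCC, which were the longest runs found in all 5 upstream regions.
Stfa2l1 (chr16:36156611-36156810, plus strand): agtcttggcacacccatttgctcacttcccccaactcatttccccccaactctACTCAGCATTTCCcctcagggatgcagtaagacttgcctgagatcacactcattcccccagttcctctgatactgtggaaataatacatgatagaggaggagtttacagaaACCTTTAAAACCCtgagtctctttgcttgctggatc
Csta3 (chr16:36210203-36210402, plus strand): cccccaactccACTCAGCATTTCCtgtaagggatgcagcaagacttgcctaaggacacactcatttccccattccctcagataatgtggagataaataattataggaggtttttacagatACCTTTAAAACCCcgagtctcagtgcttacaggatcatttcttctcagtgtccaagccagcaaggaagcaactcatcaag
Stfa1 (chr16:36276948-36277147, plus strand): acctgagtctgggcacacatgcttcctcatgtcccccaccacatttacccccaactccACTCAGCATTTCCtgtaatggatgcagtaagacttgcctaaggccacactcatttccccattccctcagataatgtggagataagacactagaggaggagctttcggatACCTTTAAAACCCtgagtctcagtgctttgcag
Stfa2 (chr16:36408364-36408563, minus strand): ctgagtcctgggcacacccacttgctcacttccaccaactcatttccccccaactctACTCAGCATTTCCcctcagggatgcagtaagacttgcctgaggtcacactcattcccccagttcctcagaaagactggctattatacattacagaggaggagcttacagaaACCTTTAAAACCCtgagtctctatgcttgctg
Stfa3 (chr16:36455393-36455592, minus strand): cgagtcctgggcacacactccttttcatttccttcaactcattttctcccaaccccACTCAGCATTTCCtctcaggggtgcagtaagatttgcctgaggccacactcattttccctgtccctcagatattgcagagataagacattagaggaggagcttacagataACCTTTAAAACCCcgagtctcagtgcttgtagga

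The 5 upstream regions were close copies of each other. Within the 250 bases before the start, 81.8% to 92.3% of aligned positions were identical in the 10 pairs. The lowest pair was Stfa2 and Stfa3, and the highest Stfa2 and Stfa2l1 (227 of 246 aligned bases). Csta3 and Stfa1 were at 89.6% (180 of 201). The pairs with Csta3 were aligned over 201 to 205 bases only, the other pairs over 244 to 247. The run ACCTTTAAAACCC, which holds a TTTAAAA stretch like a TATA box, begins at position -33 in Stfa1, -32 in Stfa2, -36 in Stfa2l1 and -34 in Stfa3, counted from the start, and at -80 in Csta3. On either strand it was found upstream of 8 of 32851 RefSeq promoters (0.0244%), those of the 5 members and of Cstdc3, Cstdc4 and Gm7260. The run ACTCAGCATTTCC was found in 9 (0.0274%), those of the 5 members and of Csta1, Cstdc3, Cstdc5 and Gm7260. Both runs were chosen for being in all 5 members, so the 5 matches of the members were fixed in advance.

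Motifs of 3 factor families of inflamed epidermis were searched on both strands of the same 250 bases in the 6 members with a RefSeq promoter entry (the 5 stefins and Cst3). The C/EBP-like word TTGCNNAA was in the regions of Csta3 and Stfa1, and 9.56% of all promoters held it. The AP-1-like word TGANTCA (6.75% of all promoters) and the STAT-like word TTCNNNGAA (7.02%) were in none of the 6, so that no match overlapped another. A match is a run of letters and no measured binding. Whether the probe sets of these near copies also catch each other's transcripts was not tested, as probe sequences were not used here.

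The deposited values were taken as log2. Array medians lay between 4.94 and 5.04, and a difference between a pair of groups had a median standard error of 0.11 over all genes. The number of arrays limited the precision, and detection calls were not used here, so a fold that starts from a low value, as for Csta3, Stfa2 and Stfa2l1, has an uncertain size. Different probe sets have different brightness, so levels are compared within a gene only. In whole skin, more RNA per cell and more cells that make it cannot be told apart.

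In control mice imiquimod raised all 5 stefin A type genes. Csta3 rose 44.3-fold, Stfa2l1 24.7-fold, Stfa3 24.4-fold and Stfa1 16.3-fold, while Stfa2 rose 2.02-fold. Cstb, Cst6 and Cst3 did not pass the test. Of the 8 genes 5 were thus higher (adjusted p under 0.05 in limma, with Benjamini-Hochberg adjustment over all genes), where 6.47% of all genes were higher, and the median log2 difference of the 8 was 2.52 against -0.004 over all genes. In 5 of the 8 every imiquimod array lay above every mock array, as did 5.6% of all genes.

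Csta3, a stefin A paralogue, had log2 values of 2.62, 2.76, 2.49, 3.13 and 2.79 in mock-treated controls (replicates 1 to 5). Under imiquimod they were 8.60, 8.03, 9.75, 8.43 and 6.33. The groups were thus far apart, and replicate 5 was the lowest of the treated arrays. The log2 difference was 5.47 ± 0.45 (SE, n = 5 per group, 95% interval 4.54 to 6.40, adjusted p = 5.14e-08), the second highest of 22180 genes.

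Stfa2l1, another stefin A type gene of the cluster, moved from 3.96, 4.30, 3.68, 4.46 and 3.90 to 8.84, 8.61, 9.45, 8.85 and 7.67. Again the treated arrays all lay above the mock arrays, with replicate 5 lowest. Its difference was 4.62 ± 0.27 (SE, n = 5 per group, 95% interval 4.05 to 5.19, adjusted p = 8.36e-10), rank 7 of all genes.

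Stfa3 read 5.35, 5.85, 6.79, 7.08 and 8.82 in mock-treated controls and 11.62, 11.44, 11.64, 11.61 and 10.63 under imiquimod. Its mock arrays were the most spread of any member and group (SD 1.34), with replicate 1 lowest and replicate 5 highest. The difference was 4.61 ± 0.46 (SE, n = 5 per group, 95% interval 3.66 to 5.56, adjusted p = 7.34e-07), rank 8.

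Stfa1 read 6.85, 6.79, 7.14, 6.52 and 8.53 in mock and 11.33, 11.18, 11.84, 11.26 and 10.35 in imiquimod-treated controls. Mock replicate 5 was the highest and imiquimod replicate 5 the lowest of its group, as in Stfa3, and the groups did not overlap. The difference was 4.03 ± 0.29 (SE, n = 5 per group, 95% interval 3.42 to 4.63, adjusted p = 1.03e-08), rank 17.

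Stfa2 stayed near the low end of the scale in every group. Its values were 2.46, 3.56, 3.18, 2.58 and 3.14 in mock and 3.97, 3.61, 4.29, 3.76 and 4.37 in imiquimod-treated controls, so the lowest treated array lay only just above the highest mock array. The difference was 1.02 ± 0.24 (SE, n = 5 per group, 95% interval 0.52 to 1.51, adjusted p = 0.00724), rank 346. Without the dimmest 30% of genes Stfa2 was not tested.

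**Figure D1:**
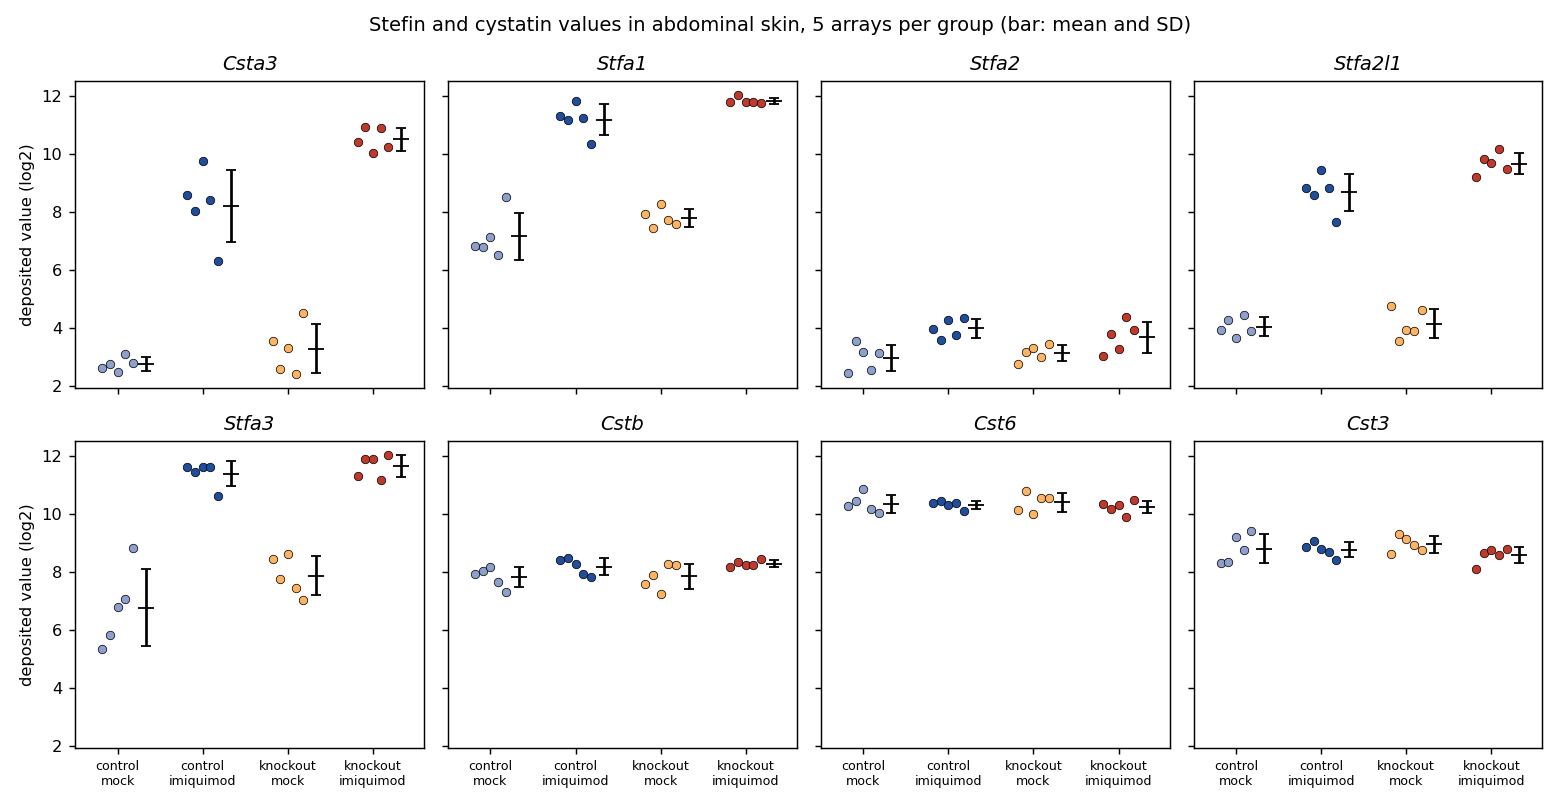
Deposited log2 value (y axis, shared by all panels) of each of the 8 genes in the 4 groups (x axis), 1 point per array, with the group mean and SD as a bar. The mock arrays of control mice sat at 2.49 to 3.13 for Csta3, their imiquimod arrays at 6.33 to 9.75, and those of imiquimod-treated knockouts at 10.05 to 10.95. Cst6 stayed between 9.90 and 10.85 in every group.

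In knockout mice 4 of the 5 stefin A type genes passed. Csta3, Stfa2l1, Stfa1 and Stfa3 rose, by 149-fold, 45.6-fold, 16.4-fold and 13.8-fold, and Stfa2, Cstb, Cst6 and Cst3 did not pass. These 4 of 8 genes compare with 11.1% of all genes that were higher in knockouts, and their arrays did not overlap, as in 7.16% of all genes. The median log2 difference of the 8 was 2.17 against -0.002 over all genes.

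Csta3 read 3.57, 2.59, 3.34, 2.43 and 4.53 in mock-treated and 10.41, 10.95, 10.05, 10.90 and 10.25 in imiquimod-treated knockouts. The mock values scattered more than in controls and the treated values less (SD 0.84 and 0.40, against 0.24 and 1.24), with no test of the spread. Its 95% interval was 6.29 to 8.15 on the log2 scale, and no other gene had a higher difference (rank 1).

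Stfa2l1 read 4.76, 3.58, 3.96, 3.90 and 4.62 in mock and 9.20, 9.82, 9.69, 10.18 and 9.48 in imiquimod-treated knockouts, and the groups lay far apart. The difference was 5.51 ± 0.27 (SE, n = 5 per group, 95% interval 4.94 to 6.08, adjusted p = 7.07e-11), rank 5 of all genes.

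Stfa1 read 7.95, 7.47, 8.29, 7.72 and 7.59 in mock and 11.81, 12.03, 11.80, 11.81 and 11.75 in imiquimod-treated knockouts. The treated arrays lay closer together than in controls (SD 0.11 against 0.54), again with no test of the spread. The difference was 4.04 ± 0.29 (SE, n = 5 per group, adjusted p = 6.63e-09), rank 24.

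Stfa3 read 8.46, 7.78, 8.63, 7.44 and 7.05 in mock and 11.30, 11.89, 11.89, 11.18 and 12.02 in imiquimod-treated knockouts, and the groups lay well apart. The difference was 3.78 ± 0.46 (SE, n = 5 per group, 95% interval 2.83 to 4.74, adjusted p = 5.48e-06), rank 26.

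Stfa2 read 2.77, 3.17, 3.32, 3.01 and 3.45 in mock and 3.05, 3.81, 3.28, 4.39 and 3.94 in imiquimod-treated knockouts, and the groups overlapped. The difference was 0.55 ± 0.24 (SE, n = 5 per group, 95% interval 0.056 to 1.04, adjusted p = 0.113). It passed without knockout imiquimod replicate 1, the lowest treated array (0.71, adjusted p = 0.0372).

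The genotypes were then compared within a treatment. In mock-treated skin limma called none of the 8 genes and 0.00902% of all genes. At an unadjusted p under 0.05 there were 2 members, Stfa3 at 1.09 (95% interval 0.14 to 2.05) and Stfa1 at 0.64 (0.029 to 1.25), against 708 of all genes, and every member had an adjusted p of 0.999. Stfa3 and Stfa1 arrays overlapped between the genotypes. Control replicate 5 lay above every knockout array in both genes. In Stfa3 control replicate 4 (7.08) also lay above knockout replicate 5 (7.05). Csta3 differed by 0.53 (95% interval -0.40 to 1.47). The intervals of Stfa3, Stfa1 and Csta3 thus include differences above 1 on the log2 scale.

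In imiquimod-treated skin Csta3 was higher in knockouts, by 4.87-fold. Its lowest knockout array (10.05) lay above its highest control array (9.75), and the log2 difference was 2.28 ± 0.45 (SE, n = 5 per group, 95% interval 1.35 to 3.22, adjusted p = 0.0206), the fifth highest of all genes. It was the 1 member of 8 that passed, where 0.374% of all genes were higher, and its arrays did not overlap, as in 1.3% of all genes. The call was lost in 3 of the 20 fits that left out 1 array, in which the difference changed little. Csta3 had an adjusted p of 0.0716 without control imiquimod replicate 2, 0.0769 without knockout imiquimod replicate 2 and 0.0677 without knockout imiquimod replicate 4, with differences of 2.23, 2.17 and 2.19. With only both imiquimod groups in the fit the adjusted p was 0.0804.

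Other stefins differed less between the genotypes under imiquimod. Stfa2l1 was at 0.99 ± 0.27 (SE, n = 5 per group, 95% interval 0.42 to 1.56, adjusted p = 0.136), and its groups overlapped through control replicate 3 (9.45). Without that array it passed (1.18, adjusted p = 0.0445). Stfa1 was at 0.65 (95% interval 0.039 to 1.26, adjusted p = 0.454), Stfa3 at 0.27 (-0.68 to 1.22) and Stfa2 at -0.31 (-0.80 to 0.19). In the rise of Stfa1 and Stfa3 the upper end was alike: treated arrays reached 11.84 and 11.64 in controls and 12.03 and 12.02 in knockouts, in deposited log2 values whose highest over all probe sets was 13.33.

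Whether the response to imiquimod itself differed between the genotypes was tested as a difference of differences, and limma called none of the 8 genes, against 0.018% of all genes. At an unadjusted p under 0.05 there were 2 members, against 1497 of all genes: Csta3, whose response was larger in knockouts by 1.75 ± 0.63 (SE, 95% interval 0.43 to 3.07, adjusted p = 0.625), and Stfa2l1, at 0.89 ± 0.39 (SE, 95% interval 0.079 to 1.69, adjusted p = 0.723). Stfa1 was at 0.010 ± 0.41 and Stfa3 at -0.83 ± 0.65 (SE, n = 5 per group). These comparisons share the mock and the imiquimod arrays with those above.

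**Figure D2:**
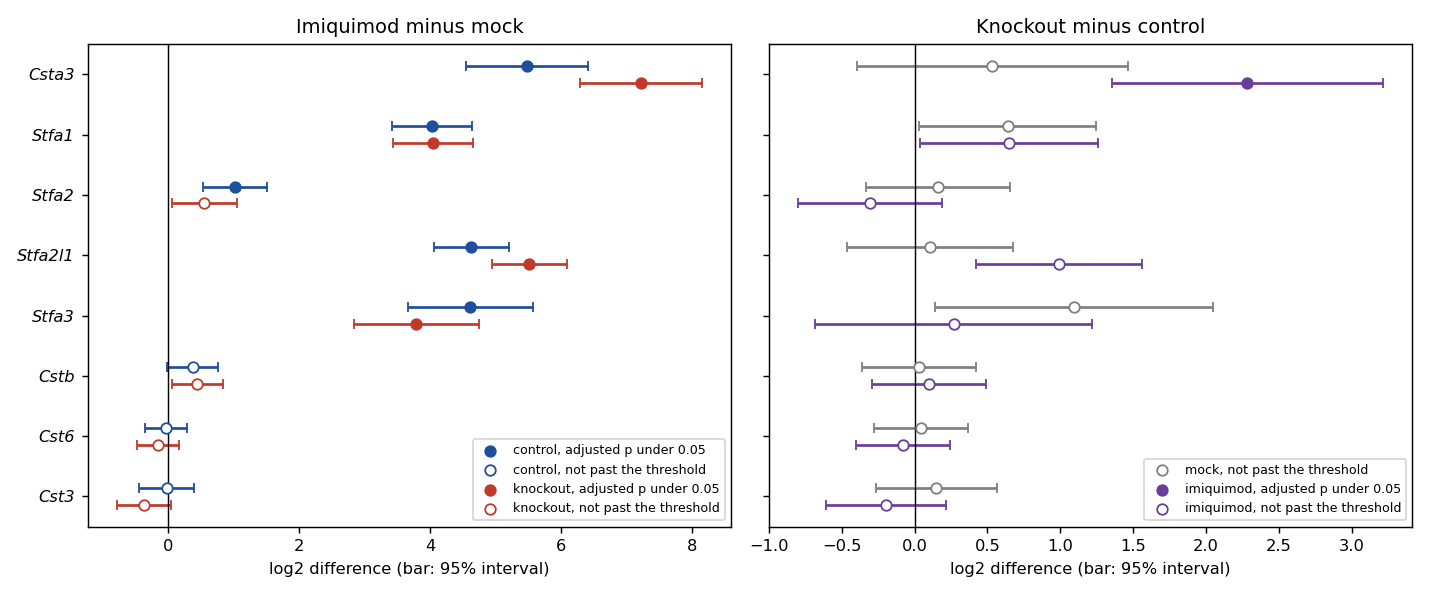
Log2 difference (x axis, bar: 95% interval) for each of the 8 genes (y axis), imiquimod minus mock by genotype on the left and knockout minus control by treatment on the right, with filled points for an adjusted p under 0.05. Csta3 stands at 5.47 in controls and 7.22 in knockouts, and its genotype difference under imiquimod, 2.28, is the 1 filled point on the right.

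The order of the 4 group means was the same in Csta3, Stfa1, Stfa2l1 and Stfa3: imiquimod-treated knockouts, imiquimod-treated controls, mock-treated knockouts, mock-treated controls. In Csta3 the means were 10.51 ± 0.40, 8.23 ± 1.24, 3.29 ± 0.84 and 2.76 ± 0.24 (SD, n = 5 each), and in Stfa1 they were 11.84 ± 0.11, 11.19 ± 0.54, 7.80 ± 0.32 and 7.17 ± 0.79. In each of the 4 genes the step from mock-treated knockouts to imiquimod-treated controls was far larger than the SDs. The mock groups overlapped in all 4, and the imiquimod groups in all but Csta3. Stfa2 was highest in imiquimod-treated controls (4.0 ± 0.33, SD, n = 5) and its knockouts overlapped them.

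The 3 inhibitors outside the cluster did not pass in any of the 5 comparisons. Cstb, the broadly expressed stefin B, ranged from 7.31 to 8.18 in mock and from 7.84 to 8.49 in imiquimod-treated controls. In knockouts it ranged from 7.24 to 8.29 and from 8.18 to 8.46. These ranges overlapped in both genotypes, with differences of 0.37 ± 0.19 in controls (SE, n = 5 per group, 95% interval -0.021 to 0.76, adjusted p = 0.241) and 0.44 ± 0.19 in knockouts (0.049 to 0.83, adjusted p = 0.108). A rise of stefin B above 0.83 on the log2 scale thus lay outside both intervals. The knockout difference passed without knockout mock replicate 4 (0.55, adjusted p = 0.0497).

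Cst6, the secreted inhibitor of legumain and cathepsin L in the cornifying layers, averaged 10.36 ± 0.31 in control and 10.40 ± 0.32 in knockout skin after mock treatment, and 10.33 ± 0.14 and 10.24 ± 0.22 after imiquimod (SD, n = 5 each). All 4 groups overlapped. The imiquimod differences were -0.036 (95% interval -0.36 to 0.29) in controls and -0.16 (-0.48 to 0.16) in knockouts, and the genotype difference under imiquimod was -0.082 (-0.40 to 0.24).

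Cst3, the secreted cystatin C, averaged 8.80 ± 0.49 in control and 8.95 ± 0.28 in knockout skin after mock treatment, and 8.77 ± 0.25 and 8.58 ± 0.28 after imiquimod (SD, n = 5 each), again with overlap. Imiquimod gave -0.030 (95% interval -0.44 to 0.38) in controls and -0.37 (-0.79 to 0.038, adjusted p = 0.211) in knockouts. A dimmer probe set of Cst3 gave 0.29 and -0.24 for the same comparisons, and -0.68 ± 0.23 (SE, n = 5 per group, adjusted p = 0.262) for knockout against control under imiquimod, where the brighter one gave -0.19. Neither probe set passed in any comparison.

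The neighbours in the cluster were set beside the members. Of 11 measured genes of the chromosome 16 cluster, 8 were higher with imiquimod in controls and 7 in knockouts, against 6.47% and 11.1% of all genes, and the 7 were among the 8. Of the 6 that are no members, 3 were higher in both genotypes and none passed between genotypes. Cstdc6 rose by 3.93 in controls and 4.45 in knockouts (adjusted p = 2.43e-08 and 2.77e-09), Cstdc5 by 2.79 and 2.66 (8.85e-07 and 1.07e-06), and Csta1 by 0.92 and 1.42 (0.00132 and 7.35e-06). A second probe set of Cstdc5 gave 0.90 and 1.05 (adjusted p = 0.00972 and 0.00163), so the size of that rise depended on the probe set.

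Cstdc4, Csta2 and Cstdc3 lie between the strongly raised genes and did not pass. Csta2 was at -0.28 in controls and 0.19 in knockouts, and Cstdc3 at 0.36 and 0.52. Cstdc4, between Stfa2l1 and Csta3, was at 0.054 and 0.81. In imiquimod-treated knockouts it read 2.26, 2.42, 2.11, 5.12 and 2.63, so that 1 array, replicate 4, carried its difference. The 13-base runs printed above give no split between genes that passed and genes that did not: Cstdc3 and Cstdc4 share ACCTTTAAAACCC with the 5 members.

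**Figure D3:**
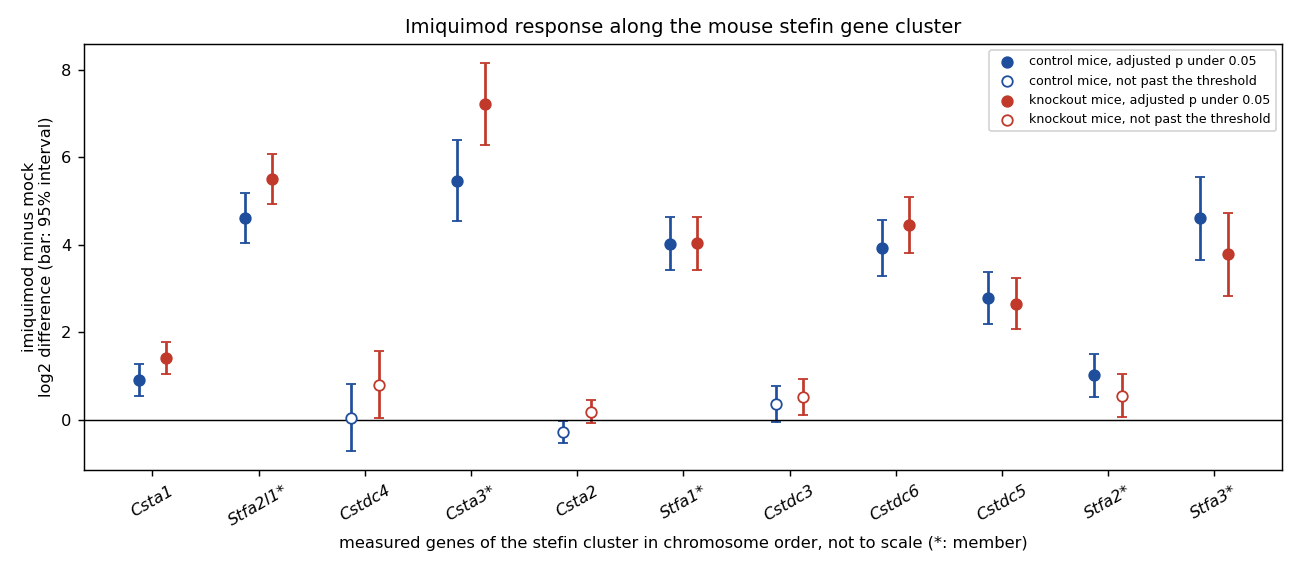
Imiquimod minus mock log2 difference (y axis, bar: 95% interval) of the 11 measured genes of the mouse stefin cluster in chromosome order (x axis, not to scale, asterisk: one of the 8 genes), in blue for control and red for knockout mice, filled where the adjusted p was under 0.05. The genes at or above 2.66 in both genotypes (Stfa2l1, Csta3, Stfa1, Cstdc6, Cstdc5 and Stfa3) are interspersed with genes of smaller differences, among them Csta2, at -0.28 and 0.19. Csta2, Cstdc3 and Cstdc4 had low values, and their detection was not tested.

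Among 14 further measured genes of the cystatin superfamily, which include cystatins of the reproductive tract, kininogens and fetuins, 1 passed, Fetub. It encodes fetuin-B, a secreted protein that inhibits metalloproteases of the astacin family. Fetub lay between 3.92 and 4.24 in mock-treated controls, between 5.25 and 5.91 in imiquimod-treated controls, between 3.84 and 4.46 in mock-treated knockouts and between 7.04 and 8.11 in imiquimod-treated knockouts. It rose by 1.42 in controls and by 3.48 in knockouts (adjusted p = 1.28e-05 and 7.40e-11). It also passed for the difference between the responses, where no member did (2.07 ± 0.25, SE, adjusted p = 0.000723).

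The proteases that these inhibitors can block changed less and in both directions. Of 11 genes of papain-like cathepsins and legumain, 1 was higher and 3 lower in controls with imiquimod, where 6.47% of all genes were higher and 4.37% lower. Ctsz, Ctsb and Ctsf, encoding cathepsins Z, B and F, fell by 0.53, 0.57 and 0.50 (adjusted p = 0.000555, 0.00667 and 0.0180), and Ctsh, encoding cathepsin H, rose by 0.30 (0.0275). Ctsf did not pass where control mock replicate 3 (adjusted p = 0.0570) or control imiquimod replicate 3 (0.0606) was left out, and Ctsh failed in 7 of the 20 fits that left out 1 array (adjusted p up to 0.0802). With the mean of hair markers as a covariate Ctsb was at -0.28 (adjusted p = 0.0829), Ctsf at -0.36 (0.136) and Ctsh at 0.16 (0.296), and these 3 did not pass.

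In knockouts 3 protease genes were higher and 5 lower with imiquimod, where 11.1% of all genes were higher and 9.71% lower. Ctsc, encoding cathepsin C, which activates serine proteases of neutrophil granules, rose by 0.55 (adjusted p = 0.00480) and Ctsh by 0.37 (0.00345). Lgmn, encoding legumain, a target of cystatin M/E, rose by 0.38 (0.0380) and lost its call in 6 of the 20 fits without 1 array (adjusted p up to 0.111). Ctsf fell by 0.89 (adjusted p = 6.75e-05), Ctso by 0.63 (0.00645), Ctsw, a cathepsin of cytotoxic lymphocytes, by 0.51 (0.0129) and Ctsz by 0.33 (0.0142). Ctsb fell by 0.37 (0.0484) and lost its call in 15 of those 20 fits (up to 0.134). With the hair covariate Ctsb was at -0.16 (adjusted p = 0.261) and Lgmn at 0.22 (0.189). Ctsl, encoding cathepsin L, the target of both stefins and cystatin M/E, was at -0.092 in controls and 0.28 in knockouts and did not pass. None of the 11 passed between genotypes in either treatment in limma, with 0 at an unadjusted p under 0.05 in mock-treated and 1 in imiquimod-treated skin.

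Stefin A is cross-linked into the cornified envelope, so the genes of that step were set beside it. Of 8 genes of envelope cross-linking and its proteases, 5 were higher with imiquimod in controls and 6 in knockouts, against 6.47% and 11.1% of all genes. None of the 8 was lower. Casp14, the caspase of cornifying cells, rose by 2.19 and 2.16 (adjusted p = 5.04e-06 and 3.81e-06). Tgm1, encoding the keratinocyte transglutaminase, rose by 0.70 and 1.11 (0.00225 and 1.19e-05), and Tgm3, encoding the epidermal transglutaminase, passed in knockouts (2.08, adjusted p = 0.000102). Tgm5, Ctsd and Ivl, which encode a further transglutaminase, cathepsin D and involucrin, rose in both genotypes by 0.46 to 1.23.

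Keratinocytes and neutrophils both make stefin A type transcripts in the mouse, so markers of both were measured beside the members. Of 11 keratinocyte markers 6 were higher with imiquimod in each genotype, against 6.47% of all genes in controls and 11.1% in knockouts. The mean log2 value of the 11 per array was 9.32 to 9.94 and 10.56 to 11.19 in mock and imiquimod-treated controls, and 9.53 to 9.98 and 11.24 to 11.39 in knockouts. Krt6b, a keratin of activated keratinocytes, rose by 5.15 and 5.39, and Krt14, the basal keratin, by 0.85 and 1.27. The 11 differences ran from -0.17 to 5.15 in controls and from -0.12 to 5.39 in knockouts, and 5 markers did not pass in each genotype. In controls the keratin gene Krt6a lost its call in 5 of the 20 fits without 1 array (adjusted p up to 0.0918).

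Of 19 neutrophil markers 1 was higher with imiquimod in controls, Cxcr2, a chemokine receptor gene, which rose by 2.03 (adjusted p = 8.78e-07), and 9 were higher in knockouts, against 6.47% and 11.1% of all genes. In the knockouts Cxcr2 rose by 2.48, Clec4e by 2.92 and Csf3r, the receptor gene for G-CSF, by 1.60. Retnlg, a resistin-like gene of neutrophils, was at 1.79 (adjusted p = 0.0321) and lost its call in 4 of the 20 fits without 1 array (adjusted p up to 0.0632), with only both knockout groups in the fit (0.124), with a robust prior variance (0.0547) and without the arrays farthest in hair markers (0.0928). The mean of the 19 per array was 4.39 to 4.54 and 4.47 to 4.76 in mock and imiquimod-treated controls and 4.45 to 4.6 and 4.92 to 6.38 in knockouts.

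Knockout imiquimod replicate 4 stood apart in these markers. Its neutrophil mean was 6.38 against 4.92 to 5.19 in the other arrays of its group. Ly6g, a surface marker of mature neutrophils, read 3.59, 3.02, 3.16, 4.65 and 3.37 there, and Retnlg 5.44, 4.47, 3.82, 8.66 and 3.87. Without that array Retnlg was at 0.93 and the same number of members, 4, was called in knockouts, with Csta3 at 7.12 (adjusted p = 7.52e-09). In controls the 19 markers had a median log2 difference of 0.13, from -1.13 to 2.03, and 4 of them had an unadjusted p under 0.05. Elane and Mpo, genes of neutrophil granules, did not pass in either genotype.

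Between genotypes under imiquimod, 2 of the 19 neutrophil markers were higher in knockouts, against 0.374% of all genes. Of the 19, 9 had an unadjusted p under 0.05, against 2218 of all 22180 genes. Clec4e was at 2.54 (adjusted p = 0.0117) and Clec4d at 1.83 (0.0465), the latter losing its call in 16 of the 20 fits that left out 1 array (adjusted p up to 0.122). Clec4e lost its call with only both imiquimod groups in the fit (adjusted p = 0.0911) and without the arrays farthest in hair markers (2.42, adjusted p = 0.0746). None of the 11 keratinocyte markers passed in that comparison, with 5 at an unadjusted p under 0.05, among them Krt6b at 1.45 (adjusted p = 0.113). The part of either cell type in the higher Csta3 of knockouts was not tested. With imiquimod 6.47% of all genes were higher and 4.37% lower in controls, and 11.1% and 9.71% in knockouts. Of 12 macrophage markers 3 were higher and 1 lower with imiquimod in each genotype, with Adgre1, encoding F4/80, at 1.75 and 1.18. In controls 3 of these 4 calls, of Cd68, C1qb and Mertk, were lost in 6, 8 and 7 of the 20 fits without 1 array (adjusted p up to 0.0772, 0.122 and 0.0794) and with the hair covariate (0.280, 0.460 and 0.212). That of Cd68 in knockouts was lost in 6 of those 20 fits (up to 0.0958) and with the covariate (0.171). The mean of the 12 per array was 6.80 to 7.79 and 7.25 to 8.05 in mock and imiquimod-treated controls, and 7.04 to 7.78 and 7.49 to 7.88 in knockouts.

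Markers of the deeper layers fell in part of their lists. With imiquimod 4 of 10 fibroblast markers were lower in controls and 3 in knockouts, where 4.37% and 9.71% of all genes were lower. None of 10 muscle markers passed in controls (0 at an unadjusted p under 0.05) and 7 were lower in knockouts, and of 9 adipocyte markers 1 was lower in controls and 6 in knockouts. Between genotypes under imiquimod 1 muscle marker was lower in knockouts, against 38 of all 22180 genes. Of the 10 muscle markers 9 had an unadjusted p under 0.05 in that comparison, against 2218 of all genes. Their differences ran from -1.47 to -0.28, with a median of -0.89. No fibroblast or adipocyte marker passed in that comparison in limma (0 and 1 at an unadjusted p under 0.05). The part of these tissues in the member differences was not tested.

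The signal of hair markers differed within the groups, and in controls several stefins moved opposite to it. The mean of 19 hair shaft and follicle markers was 10.02, 10.10, 9.02, 10.01 and 6.07 in mock-treated controls and 5.99, 5.70, 5.51, 6.0 and 9.24 in imiquimod-treated controls. In knockouts it was 9.81, 7.72, 6.05, 9.61 and 10.03 in mock and 9.03, 5.87, 5.78, 7.33 and 5.61 under imiquimod. Mock-treated arrays were thus mostly high and treated arrays mostly low, and in controls replicate 5 of each treatment was the exception. None of the 19 markers passed with imiquimod in limma, with 18 at an unadjusted p under 0.05 in controls and 7 in knockouts, and medians of -2.94 and -2.03.

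The exceptional arrays were also the exceptions in several stefins. Control mock replicate 5 was the highest of its group in Stfa1 (8.53), Stfa3 (8.82) and Cstdc6 (4.68), and control imiquimod replicate 5 the lowest of its group in Csta3 (6.33), Stfa1 (10.35), Stfa2l1 (7.67) and Stfa3 (10.63). Knockout mock replicate 3 was the highest of its group in Stfa1 (8.29) and Stfa3 (8.63). Csta3 did not follow this in mock-treated controls, where replicate 5 (2.79) lay inside the range of the other arrays. Nor did Stfa2 in imiquimod-treated controls, where replicate 5 (4.37) was the highest of its group. In imiquimod-treated knockouts, replicate 1, with the most hair signal, was the lowest of its group in Stfa2l1 (9.20) and Stfa2 (3.05) and lay inside the range of the other arrays in Csta3 (10.41), Stfa1 (11.81) and Stfa3 (11.30).

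Fits that took the hair markers into account kept the 9 imiquimod calls of the members, but not all of those of other listed genes: with the covariate Ctsb, Ctsf, Ctsh, Cd68, C1qb, Mertk and Krt10 lost theirs in controls, and Ctsb, Lgmn and Cd68 in knockouts. With 4 arrays dropped, the one in each group that was farthest from the others in hair markers, the rise in controls was 5.95 for Csta3, 4.58 for Stfa1, 4.84 for Stfa2l1 and 5.31 for Stfa3. With the hair mean as a covariate it was 5.19, 3.43, 4.55 and 3.67, and in knockouts 7.01, 3.59, 5.46 and 3.08. Stfa2 passed in knockouts without those arrays (0.76, adjusted p = 0.0371). The higher Csta3 of imiquimod-treated knockouts was 2.31 (adjusted p = 0.00664) with the covariate and 1.84 (adjusted p = 0.0741) without the arrays. Cst3 passed with the covariate alone, at -0.47 in controls (adjusted p = 0.0455) and -0.70 in knockouts (adjusted p = 0.000607), and was at 0.21 and -0.21 without the arrays.

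**Figure D4:**
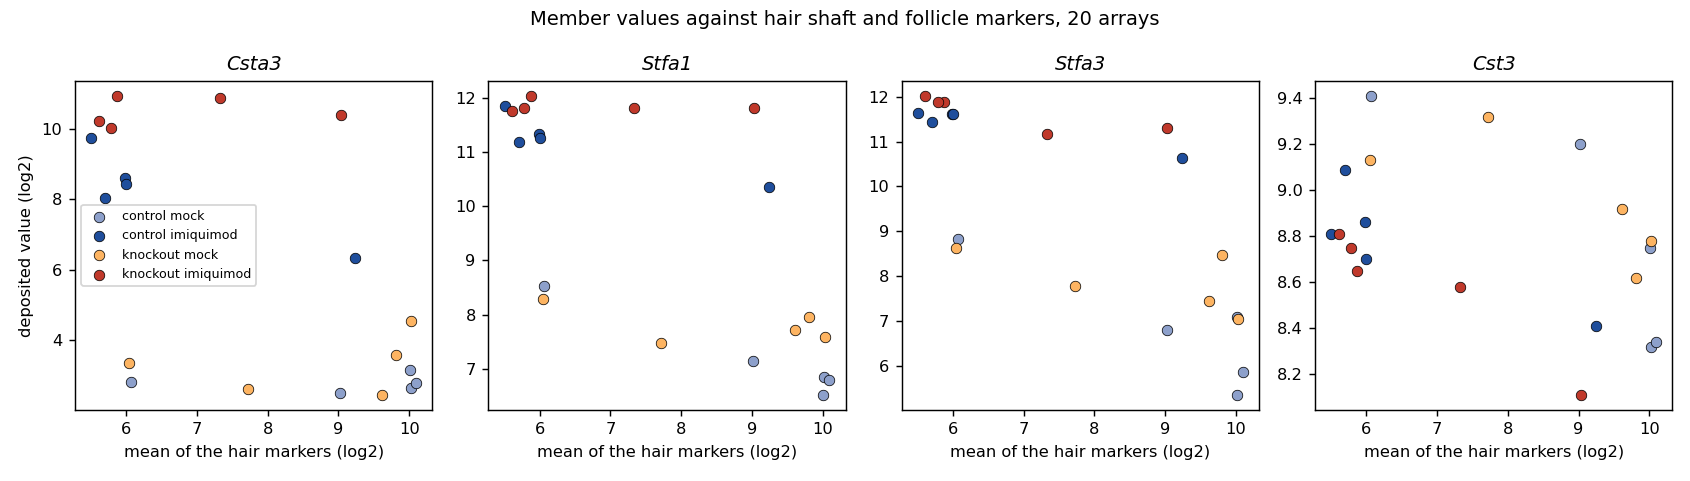
Deposited log2 value of Csta3, Stfa1, Stfa3 and Cst3 (y axis, a scale for each panel) against the mean log2 value of the 19 hair markers (x axis), 1 point per array, coloured by group. Control imiquimod replicate 5, at a hair mean of 9.24, is the lowest dark blue point for Csta3 (6.33), Stfa1 (10.35) and Stfa3 (10.63), and control mock replicate 5, at 6.07, the highest light blue point for Stfa1 (8.53) and Stfa3 (8.82).

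The genes whose values most resembled each member over the 20 arrays are given as a description. The arrays share the group differences, so Pearson's r is also given after each group's mean was subtracted. Nearest to Csta3 were Defb3, a beta-defensin (r = 0.996, and 0.910 after subtraction), Sprr2e, a small proline-rich protein of the cornified envelope (0.993 and 0.838), and S100a9, a calprotectin subunit (0.991 and 0.887). Nearest to Stfa3 were the IL-36 cytokine genes Il1f9 (0.985 and 0.888), Il1f6 (0.984 and 0.951) and Il1f8 (0.983 and 0.940). The nearest to Stfa1 was its cluster neighbour Cstdc6 (0.986 and 0.772), followed by Il1a, encoding the alarmin IL-1 alpha (0.986 and 0.738), and the kallikrein gene Klk9 (0.986 and 0.770).

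Stfa2l1 was nearest to Pla2g4e, a phospholipase gene (0.994 and 0.831), Aqp3, the water and glycerol channel of keratinocytes (0.991 and 0.739), and Lce3c, a late cornified envelope gene (0.990 and 0.755). The dim Stfa2 had no gene above 0.817 (Ppp1r11, 0.637 after subtraction). Cstb was nearest to Slc15a1, a peptide transporter gene (0.936 and 0.925), Cst6 to Sprr4 (0.820 and 0.818) and Gsdma3, a gasdermin gene of the hair follicle and upper epidermis (0.787 and 0.800), and Cst3 to Serping1, encoding the complement C1 inhibitor (0.942 and 0.933), and Aebp1 (0.940 and 0.932). For these 3 inhibitors r changed little on subtraction of the group means, so the likeness lay mostly within groups.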

How the data were processed

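RNA from abdominal skin (Trizol, then RNeasy columns) was labelled from 200 ng with the Affymetrix WT PLUS protocol, per the labels. The authors deposited 1 table of 41345 probe sets for 20 arrays, whose values (1.41 to 13.33) were taken as log2 from their range; the sources used here give no log base, summarisation or normalization, so folds rest on that base. The platform's table gave 23521 probe sets 1 symbol, 1814 several and 16010 none; only the first were used, with the brightest per gene over all arrays (22180 genes). Checked against RefSeq, 0 symbols changed.

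Differences came from limma 3.58.1 in R 4.3.3 (lmFit, eBayes, 4 group means, 20 arrays, 16 residual and 3.99 prior degrees of freedom), two-sided, with Benjamini-Hochberg adjustment over all genes and a threshold of 0.05. Replicates were separate animals, per the series design. In a simulation of the genotype comparison under imiquimod (22180 genes, 200 changed) the fit recovered 33 of 50 genes changed by 0.5, 43 by 1, 48 by 2 and 50 by 4 on the log2 scale, with 4 false calls. The simulated noise was independent between arrays, and each gene had the same SD in every group. It held no shared array variation such as that of the hair markers, so these counts need not hold for the data. Replicate numbers did not pair the arrays: 16 of 30 same-numbered pairs had deviations correlated under 0.1.

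The members, the gene lists and the tests were chosen with earlier results of these data known, so list counts are descriptions. Lists covered cluster neighbours, other cystatins, cysteine proteases, envelope cross-linking and markers of keratinocytes, neutrophils, macrophages, fibroblasts, hair, muscle and fat. Named genes were the members, Zfp36, up to 3 genes per list and comparison with the smallest p past the threshold (all where 5 or fewer passed), defining cell markers, and the 3 genes most like each member. The cluster neighbours that did not pass, Ctsl, Tgm5, Ctsd, Ivl, Krt6a and the probe set pairs were named after their values were seen. Alternatives were the groups fitted, the replicate number as a block, a trended or robust prior, array weights, quantile or median scaling, the mean of probe sets or each by itself, no dim genes, hair markers as a covariate, the array of each group farthest in hair markers left out, and each array left out. Promoters are RefSeq's (GRCm38.p6), aligned globally without end gaps counted.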

Additional observations from a re-analysis of the deposited data

Results flagged for a closer look

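Of the 32 sets of 5 values, 1 per member and group, 2 held an array whose gap to its neighbour exceeded 0.71 of the range (Dixon's 95% value); chance gives about 1 in 20 such sets. Stfa3 in control imiquimod replicate 5 was at 10.63, against 11.44 to 11.64 in the other 4 arrays. That array also had the highest hair mean of its group, 9.24 against 5.51 to 6.0. Stfa1 in knockout imiquimod replicate 2 was at 12.03, against 11.75 to 11.81 in the others.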

How the results depend on the processing

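Of 40 member differences, 10 passed. Over 12 settings and 20 left-out arrays they gave 1267 values, of which 1219 kept direction and side of the threshold, 6 lost and 6 gained a call and 36 reversed, none of these among differences that passed; all 287 values of the 9 imiquimod differences that passed kept both. Members called for knockout against control under imiquimod numbered 0 with only the groups of the contrast, 0 with the replicate block (Csta3 adjusted p = 0.0589) and 0 without the arrays farthest in hair markers, and 0 to 2 with an array left out. The block gave 78 genes in that comparison against 121, 2036 and 4230 for imiquimod and no other change of a member's call; same-numbered arrays were not paired, and 2 of 20 correlated best with their own number. Median centring gave 1651 higher and 677 lower genes in controls (1435 and 969 before) and 2804 and 1766 in knockouts (2451 and 2154 before). Array weights gave 242 and the hair covariate 352 genes for knockout against control under imiquimod, and array weights 3697 for imiquimod in controls (2404 before); dropping the arrays farthest in hair markers gave 54 and 3583. Only the groups of the contrast gave 17 genes for that genotype comparison and 0 in mock (2 before), and an array left out 45 to 174 and 0 to 4. For the difference of responses, 4 genes before, array weights gave 8, the hair covariate 13 and an array left out 4 to 8; in mock, array weights gave 4 genes, the hair covariate 5, and median centring, each probe set by itself and dropping the arrays farthest in hair markers 1.

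Reversals, all of differences that did not pass, were as follows. Imiquimod in controls: Cst6 at 0.016 with array weights, 0.002 with median centring and -0.12 to 0.086 with an array left out; Cst3 at 0.10 with array weights, 0.008 with median centring, 0.13 with the mean of probe sets, 0.21 without the arrays farthest in hair, and -0.15 to 0.12 with an array left out. Genotype in mock: Cst3 at -0.004 with the mean of probe sets, and with an array left out Cstb from -0.098 to 0.18, Cst6 from -0.052 to 0.16 and Stfa2l1 from -0.045 to 0.25. Genotype under imiquimod: Cst6 from -0.14 to 0.004 with an array left out. Difference of responses: Stfa1 at -0.22 with array weights, -0.009 with quantile normalization, -0.41 without the arrays farthest in hair, and -0.33 to 0.17 with an array left out; Cstb at -0.013 with array weights, -0.015 without the arrays farthest in hair, and -0.083 to 0.20 with an array left out. The cause was not tested. The same settings were applied to other listed genes, a choice made after seeing the data: of their 65 differences that passed, 17 lost the call in at least 1 setting, and none reversed. Low values near the array floor limit Stfa2, the neighbours Csta2, Cstdc3 and Cstdc4, and the mock levels of Csta3 and Stfa2l1.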
